A study of Mus musculus with 180 samples.

Results

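The cytosolic ribosomal protein genes encode the protein parts of the ribosome that translates nuclear mRNAs. Members were taken by symbol: every listed gene named Rpl or Rps with a number, Rplp0, Rplp1 and Rplp2 of the stalk, and Rpsa. This gave 78 genes of the 14825 in the table, with 31 of the small subunit, 46 of the large subunit and Rps4y2, an old symbol for a gene that the annotation now calls Rps4l. Fau, which encodes the small subunit protein S30 as part of a fusion protein, fell outside the symbols and is given separately.

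Levels were measured in 180 single cells on the C57BL/6 background, each sequenced as its own library with Smart-Seq2 chemistry. WT-MPP (41 cells), multipotent progenitors, and BM HSC (36 cells), haematopoietic stem cells, came from the bone marrow of 8-week-old Hoxb5LSL/+ mice, which carry a silent Hoxb5-EGFP cassette in Rosa26 and no Cre. FL HSC (56 cells) were fetal liver stem cells of Hoxb5LSL/+ E14.5 embryos, sorted from Lin-Sca1+c-Kit+ cells that carried CD45.2, CD150 and CD11b, although the labels give bone marrow as the source of every cell. CD11b+CD48+SK cells (47 cells) were donor-derived cells of primary recipients at Week 8 post-transplantation. Their donor MPP were of Mx1cre/Rosa-LSL-Hoxb5-EGFP/+ genotype, in which the interferon-responsive Mx1 promoter drives Cre after pIpC injection and Cre switches Hoxb5 on. The recipients had been lethally irradiated and also received helper cells. No transplanted control MPP were among the populations, so Hoxb5, transplantation, pIpC and the sorting gate cannot be told apart in any difference that involves CD11b+CD48+SK cells. The labels tie no cell to an animal, which leaves 1 sample per population: no test was made, and a spread over cells or an interval describes these cells only.

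A ribosome holds 1 copy of nearly every one of these proteins, so cells make them in matched amounts. Their mRNAs carry a terminal oligopyrimidine (TOP) tract, a C followed by a run of C and T at the very 5′ end, through which mTORC1 signalling and LARP1 set their translation as a group. In blood, adult stem cells are known for a low rate of protein synthesis, and loss of 1 allele of any of several of these genes causes Diamond-Blackfan anaemia, a failure of red cell production.

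The TOP tract could be read at the RefSeq start sites (GRCm38.p6) of 57 members, which had 67 starts. A tract was a C followed by C or T letters, at least 5 bases long in all. Read from the start base itself, 19.4% of the members' starts held one, including starts inside a run that opens upstream. Read from any base within 3 bases of the start, 35.8% did. Over all 32851 RefSeq starts, those shares were 2.5% and 11.5%. Only the transcribed strand was searched, and no match says only that these letters are not in this window. The following 30-base windows run from 10 bases before the start, 5′ to 3′, with the tract in capitals. They are shown for abundant members and for members whose level departs from the rest in the results that follow, and RefSeq starts can lie a few bases from the true cap.
Rpl13 (chr8:123102340-123102369, + strand): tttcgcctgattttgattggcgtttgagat
Rps18 (chr17:33955646-33955675, - strand): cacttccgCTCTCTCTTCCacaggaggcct
Rpl7a (chr2:26910797-26910826, + strand): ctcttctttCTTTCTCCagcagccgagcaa
Rps10 (chr17:27635225-27635254, - strand): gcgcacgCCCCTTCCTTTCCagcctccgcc
Rps27 (chr3:90213629-90213658, - strand): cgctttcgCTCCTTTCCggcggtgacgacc
Rps28 (chr17:33824543-33824572, - strand): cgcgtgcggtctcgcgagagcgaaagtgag
Rpl26 (chr11:68901556-68901585, + strand): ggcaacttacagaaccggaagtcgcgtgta
Rps25 (chr9:44407704-44407733, + strand): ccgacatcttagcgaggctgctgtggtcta
Rps18, Rpl7a, Rps10 and Rps27 held a tract, while the windows of Rpl13, the most abundant member, and of Rps28, Rpl26 and Rps25 held none.

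Values are TPM, transcript shares that are scaled for transcript length and sum to 1000000 per cell. A gene is called present at TPM 1 or more. The depth per cell is unknown, and the median number of genes present was highest in FL HSC (5206), followed by CD11b+CD48+SK cells (4514), BM HSC (4442) and WT-MPP (3844). Of the sort markers, Cd48 was present in 47 of 47 CD11b+CD48+SK cells against 7 of 41 WT-MPP. The CD11b gene Itgam was seen in 17 of those 47 cells and in 9 of 56 FL HSC, although both gates took CD11b+ cells. In mean log2(TPM + 1), CD11b+CD48+SK cells exceeded WT-MPP in Cd48 (9.74), Itgam (1.37), Flt3 (1.22), Ptprc (0.66) and Slamf1 (0.09). Kit (-1.59) and Ly6a (-0.53), the c-Kit and Sca1 genes, were lower, although SK cells were sorted as c-Kit+ and Sca1+. Kit was also lower than in BM HSC (-2.54) and FL HSC (-1.52). Hoxb5, whose cassette Cre switches on in the donor cells, was present in 43 of 47 CD11b+CD48+SK cells and 7 of 41 WT-MPP, with its own locus and the cassette not told apart. In FL HSC, the 6 listed erythroid markers in the table summed to 104 to 11606 TPM per cell (median 2406), and elsewhere to 0 to 2858 TPM (medians 0 to 39.5). By gene, Hbb-b2 (9.10), Hbb-b1 (7.49) and Epor (1.34) were higher in FL HSC than in BM HSC in mean log2(TPM + 1). Hba-a2 (0.25), Hba-a1 (0.12) and Klf1 (-0.03) differed little in that pair. Klf1 was at 0 in all WT-MPP, Hba-a1 in all BM HSC and Epor in all CD11b+CD48+SK cells. Of the myeloid markers, Mpo was present in 43 of 47 CD11b+CD48+SK cells against 4 of 41 WT-MPP and Ctsg in 39 against 0. Their differences in mean log2(TPM + 1) were 5.49 and 5.21. Prtn3 went the other way in this pair, at -1.25, and Lyz2 (0.94) and S100a8 (0.81) differed less. All 7 myeloid markers in the table summed to 559 to 8226 TPM in CD11b+CD48+SK cells (median 2038) and to 18.2 to 4568 TPM in WT-MPP (median 1483), while the median of BM HSC was 1252 TPM and that of FL HSC 1681 TPM. Some CD11b+CD48+SK cell held each of 6 of the 7, and Elane was at 0 in all of them, while S100a8 and S100a9 were at 0 in all cells of the other populations. The 4 mast cell and basophil markers summed to a median of 144 TPM in CD11b+CD48+SK cells and 0 elsewhere, and hepatocyte and endothelial markers to medians of 0 throughout. The part of these genes in the results was not tested.

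In 17 cells the expressed genes stood at unusually low TPM, with a median ratio to each gene's mean over all cells of under 0.25: 12 WT-MPP, 4 BM HSC and 1 CD11b+CD48+SK cell. These cells had fewer genes present (median 3060 in the 12 WT-MPP against 4109 in the other 29) and held a larger share of ribosomal protein mRNA (median 11.2% of TPM against 8.15%). The same order held in BM HSC, with 13.5% in the 4 cells against 9.42% in the other 32. Several results that rest on these cells are given with and without them.

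The summed share of TPM held by all members was highest in CD11b+CD48+SK cells. It ran from 11.8% to 22.9% per cell with a median of 15.4% (mean 15.7% ± 2.32, SD over 47 cells). FL HSC followed with 7.57% to 15.7% and a median of 11.7% (mean 11.8% ± 1.7, SD over 56 cells). BM HSC spanned 7.01% to 15.9% around a median of 9.51% (mean 10.3% ± 2.23, SD over 36 cells), and WT-MPP 5.88% to 15.5% around 8.6% (mean 9.43% ± 2.2, SD over 41 cells). Every one of the 47 CD11b+CD48+SK cells lay above the median of each other population, but the ranges overlapped: 23 of the 47 exceeded the highest WT-MPP cell, 18 the highest BM HSC and 21 the highest FL HSC. The ratio of medians was 1.8 against WT-MPP, 1.62 against BM HSC and 1.32 against FL HSC. BM HSC and WT-MPP, neighbours in this order, differed by 0.906 percentage points, less than the SD over cells of either. FL HSC exceeded BM HSC by 2.21 percentage points, below the SD over cells of BM HSC but above that of FL HSC. Without the 17 low-ratio cells the medians were 15.3%, 11.7%, 9.42% and 8.15% in the same order. Since TPM is a share, more ribosomal protein mRNA per cell and less of other mRNA cannot be told apart.

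**Figure D1:**
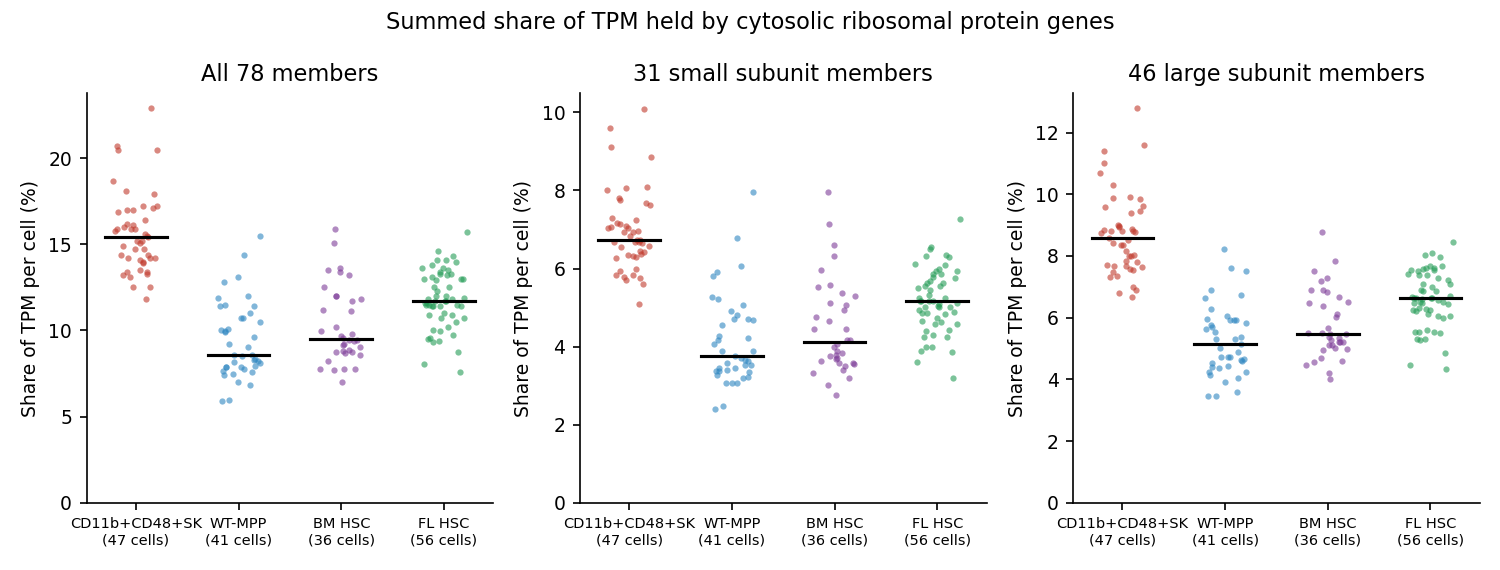
Share of TPM per cell (%) held by all 78 members, by the 31 small subunit members and by the 46 large subunit members, with 1 point per cell and a black line at the median of each population. CD11b+CD48+SK cells sit highest in every panel, with a median of 15.4% for all members, and their lower cells overlap the other populations.

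Both subunits shared this order. From CD11b+CD48+SK cells through FL HSC and BM HSC to WT-MPP, the median share was 6.73%, 5.16%, 4.11% and 3.77% for small subunit members and 8.59%, 6.63%, 5.47% and 5.14% for large subunit members. The ratio of small to large subunit TPM was nearly level, with medians of 0.795, 0.785, 0.758 and 0.782. It was tighter in CD11b+CD48+SK cells (SD over cells 0.0482) and FL HSC (0.0378) than in WT-MPP (0.101) and BM HSC (0.0996). The highest ratios of WT-MPP (1.06) and BM HSC (1.11) and the lowest of WT-MPP (0.598) lay in low-ratio cells. The lowest of BM HSC (0.566) did not. Of the 17 low-ratio cells 12 were WT-MPP and 4 BM HSC, and this SD was not taken without them. Across the cells of a population, the small and large subunit shares had a Spearman rho of 0.87 in BM HSC to 0.93 in FL HSC. Both shares come from the same library and the same total, which moves them together.

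Members spanned a wide range of levels, and the range was nearly the same in each population. The 5 highest by mean TPM over the populations were Rpl13 (6851 TPM), Rps18 (4939 TPM), Rpl32 (4649 TPM), Rps14 (3749 TPM) and Rps19 (3734 TPM), the last being the gene most often mutated in Diamond-Blackfan anaemia. Rpl13, a large subunit protein, ran from 4967 to 13239 TPM in CD11b+CD48+SK cells with a median of 8500 TPM. Its medians were 6858 TPM in BM HSC, 6624 TPM in FL HSC and 5639 TPM in WT-MPP. The 5 lowest were Rpl26 (67.9 TPM), Rps15a (114 TPM), Rps4y2 (124 TPM), Rpl22 (136 TPM) and Rpl21 (248 TPM). The rank order of the 78 levels had a Spearman rho of 0.929 (FL HSC with WT-MPP) to 0.981 (BM HSC with WT-MPP) between pairs of populations, and the 10 highest members held a median of 31.2% to 34.4% of all member TPM in each. Among the 100 genes of highest mean TPM, 46 were members in CD11b+CD48+SK cells, 39 in FL HSC and BM HSC and 35 in WT-MPP.

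**Figure D2:**
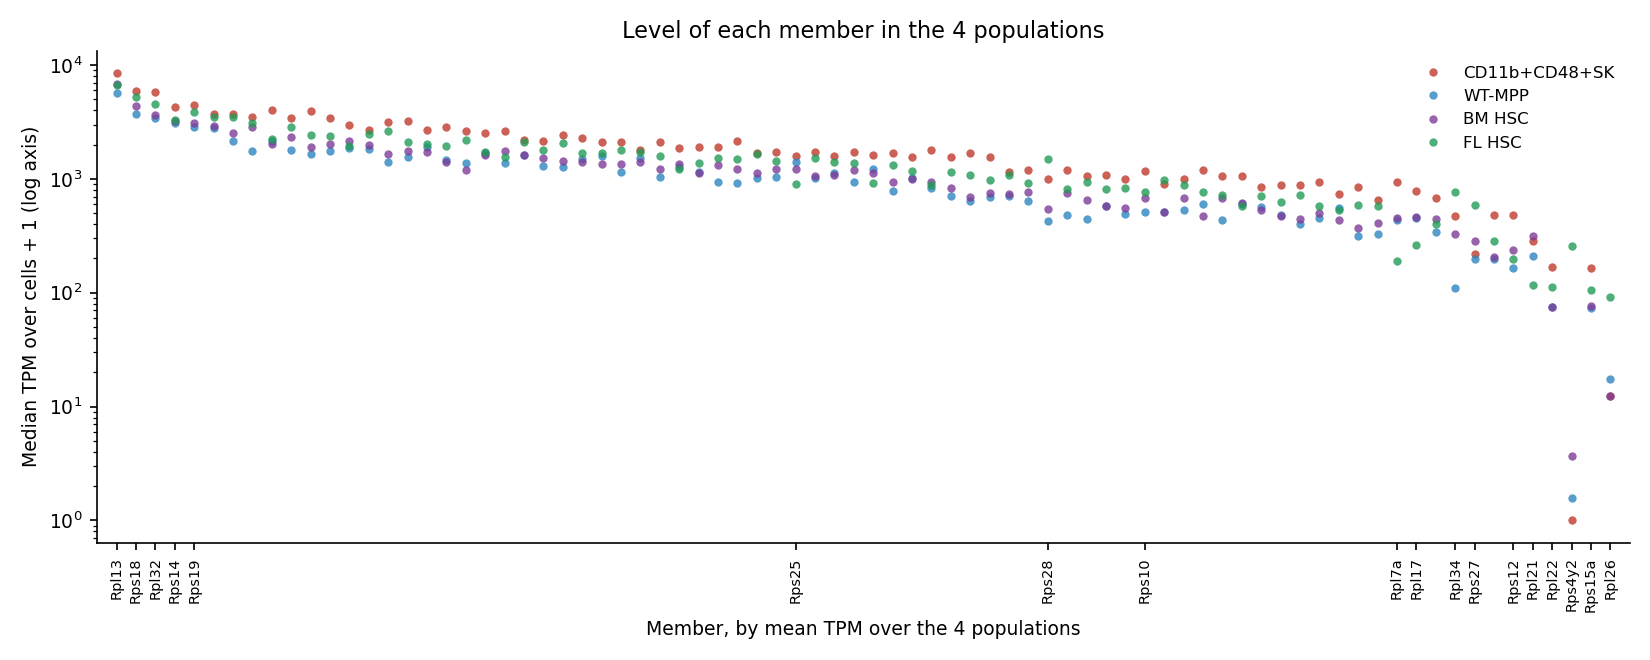
Median TPM over cells plus 1 (log axis) of each of the 78 members in the 4 populations, with members ordered by mean TPM over the populations and names given for the departing, the 5 highest and the 5 lowest members. CD11b+CD48+SK is uppermost for 71 members, FL HSC for Rps4y2, Rpl26, Rps27, Rps28, Rpl34 and Rpl35a, and BM HSC for Rpl21.

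Differences between populations are given as the difference in mean log2(TPM + 1) over cells, where 1 is a doubling for a gene well above TPM 1. The comparison took the 10856 genes that 10% or more of any population's cells held at TPM 1 or more, and all 78 members passed. A difference of 1 or more in size is called past the fold. The largest shift was from WT-MPP to CD11b+CD48+SK cells, the pair closest to the step from MPP to their Hoxb5-expressing progeny. The median member was 0.99 higher (quartiles 0.73 and 1.25) and 76 of 78 were above 0, against a median of 0.21 over all genes. Of the members, 39 (50%) were higher by the fold, where 19% of all genes were, and 0 were lower, where 5.01% of all genes were. Scaling cells by the median ratio of their expressed genes turned this median to -0.07, with 2 members higher and 1 lower by the fold, where 10.7% and 13% of all genes were. The same scaling without the 17 low-ratio cells gave 0.91, with 33 higher and 0 lower, where 13.9% and 9.53% of all genes were. Taking log2 of the mean TPM instead, 13 members were higher, where 10.3% of all genes were, with a median of 0.77.

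Against BM HSC, the median member was 0.79 higher in CD11b+CD48+SK cells, with all genes at -0.00. There 20 members (25.6%) were higher by the fold against 13.4% of all genes, and 1 member, Rps4y2, was lower against 11.8% of all genes. Under the median-ratio scaling the median remained above 0, at 0.19 with all cells and 0.65 without the 17. In these settings 0 and 9 members were higher by the fold, where 9.65% and 10.7% of all genes were. By log2 of the mean TPM 8 of the 78 were higher, where 9.78% of all genes were. Against FL HSC, the median member was 0.44 higher while the median of all genes was 0.32 lower (-0.32). There 5 members (6.41%) were higher by the fold, where 4.02% of all genes were: Rpl7a, Rpl17, Rps12, Rpl21 and Rps27a. The 3 that were lower (3.85%), where 20.9% of all genes were, were Rps4y2, Rpl26 and Rps27. In this pair the members and the rest of the genes thus lay on opposite sides of 0, and the scaled median was 0.70. Scaled, 13 members were higher and 3 lower by the fold, where 4.96% and 17.5% of all genes were.

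The 3 comparisons without CD11b+CD48+SK cells gave medians close to those of all genes. FL HSC exceeded BM HSC by a median of 0.38 over members and 0.31 over all genes, but the sign of the member median turned to -0.48 under the scaling and was 0.06 without the 17 cells. In that pair 5 members (6.41%) were higher by the fold against 25.6% of all genes, and 1 member, Rpl21, was lower against 5.44%. Scaled, 2 were higher and 9 lower, where 16.7% and 10.8% of all genes were. Without the 17 cells, 3 were higher and 2 lower, where 17.8% and 9.34% of all genes were. FL HSC exceeded WT-MPP by a median of 0.60 over members and 0.56 over all genes, with 11 members (14.1%) higher by the fold against 33.9% and 0 lower against 3.08%. Here too the scaled median was below 0, at -0.71. By the fold 2 members were then higher and 18 lower, where 20.7% and 9.77% of all genes were. Without the 17 cells the scaled median was 0.33, with 5 higher and 3 lower, where 23.2% and 6.89% of all genes were. BM HSC exceeded WT-MPP by 0.18 over members and 0.22 over all genes, with 3 members (3.85%) higher against 14.49% and 0 lower against 2.67%. The scaled value was -0.28, and 0.27 without the 17 cells. These 6 comparisons share populations. The same scaling, with all cells, moved the median of all genes most in FL HSC minus WT-MPP, from 0.56 to 0.16, and in CD11b+CD48+SK minus WT-MPP from 0.21 to -0.06.

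Members also moved more alike than other widely present genes in most pairs. The SD of the difference over members was 0.45 in CD11b+CD48+SK minus WT-MPP, against 0.75 over the 633 non-members present in 90% or more of cells in each population. Those genes were not matched to the members by level, and the part of level in the spread was not tested. The median of those 633 genes in the same pair was 0.55, between the members and all genes. In CD11b+CD48+SK minus FL HSC the SD over members was the wider one, at 0.86 against 0.74, with Rps4y2 at -5.24.

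**Figure D3:**
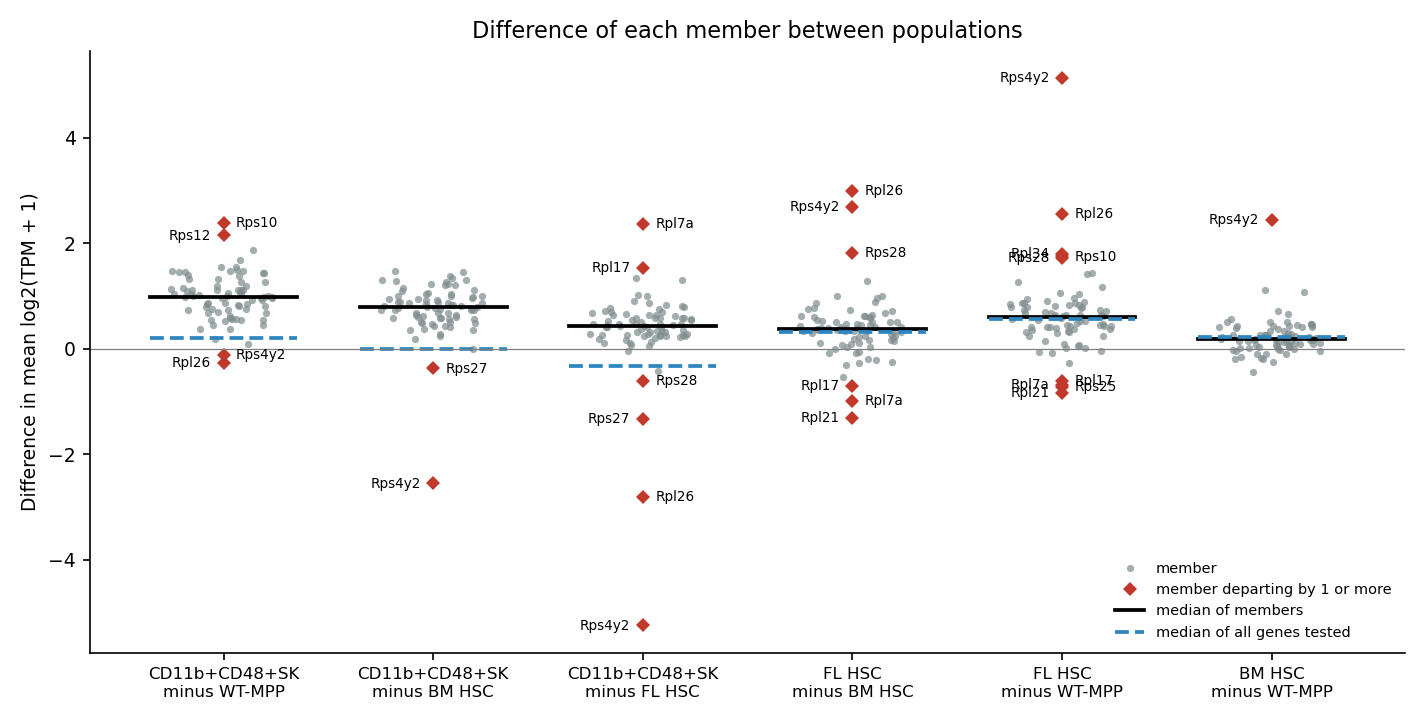
Difference in mean log2(TPM + 1) of each of the 78 members in the 6 comparisons, with the median of members (black line) and of all 10856 genes compared (dashed line). Red diamonds are members 1 or more from the members' median. The members' median lies above that of all genes in the 3 comparisons with CD11b+CD48+SK cells, at 0.99, 0.79 and 0.44, though scaling cells by their median ratio turns the first to -0.07 and turns the medians of the last 3 comparisons below 0.

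By role, the 31 small subunit members had a median difference of 1.03 in CD11b+CD48+SK minus WT-MPP and the 46 large subunit members 0.97 while in FL HSC minus WT-MPP they had 0.62 and 0.56. Of the small subunit proteins, Rpsa, the laminin receptor whose loss causes congenital absence of the spleen, had a median of 1086 TPM in CD11b+CD48+SK cells, with FL HSC at 821 TPM, BM HSC at 575 TPM and WT-MPP at 573 TPM. Rps6, the substrate of the S6 kinases downstream of mTORC1, had medians of 2538, 1720, 1612 and 1680 TPM in the same order. Rpl38, known for its role in the translation of Hox mRNAs, had medians of 1063, 720, 672 and 437 TPM, and all populations overlapped between 444 and 1126 TPM. Its difference was 0.96 against WT-MPP, close to the members' median of 0.99.

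The stalk proteins, which recruit translation factors to the large subunit, kept to this pattern with differences of their own. Rplp0, the stalk base, had a median of 3480 TPM in CD11b+CD48+SK cells, to which FL HSC (3123 TPM) and BM HSC (2850 TPM) were nearer than WT-MPP (1769 TPM). Rplp1 had 2641 TPM in CD11b+CD48+SK cells against 1380 to 1759 TPM in the others. Rplp2 had 1684 TPM, followed by FL HSC with 1083 TPM, BM HSC with 688 TPM and WT-MPP with 640 TPM. In CD11b+CD48+SK minus WT-MPP the 3 stalk genes differed by 0.85 to 1.48.

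The 4 X-linked members had differences of 0.52 to 1.45 in CD11b+CD48+SK minus WT-MPP. Rpl39 and Rpl36a stood at the top, each at 1.45, and Rpl10 at the bottom, with Rps4x at 0.56. Rpl39 ran from 424 to 2547 TPM in CD11b+CD48+SK cells (median 1191) and from 0 to 1522 TPM in WT-MPP (median 605), so the populations overlapped. Of the 19 members mutated in Diamond-Blackfan anaemia, 10 (52.6%) were higher by the fold in that pair and 0 were lower, a share close to the 50% of all members. In CD11b+CD48+SK minus BM HSC 7 (36.8%) were higher, beside 25.6% of all members and 13.4% of all genes, and 0 lower, with a median of 0.85 beside 0.79 over all members. Rps26 had a median of 2623 TPM in CD11b+CD48+SK cells against 1369 TPM in WT-MPP. Rpl5 and Rpl11, which bind Mdm2 when ribosome assembly fails, differed by 0.45 and 0.70 there. Of the 6 listed genes of that nucleolar stress response, Bax (1.40) and Bbc3 (1.06) were higher by the fold (33.3% beside 19% of all genes) and Mdm2 (-1.01) was lower (16.7% beside 5.01%).

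In all, 11 members departed from the rest, lying 1 or more from the members' median difference in at least 1 of the 6 comparisons. They were Rps4y2, Rpl26, Rpl7a, Rps27, Rpl21, Rps28, Rps10, Rps25, Rpl17, Rpl34 and Rps12. The share of all genes that lay that far from their own median in at least 1 of the 6 was not computed. By single comparison, 4 of the 78 members departed in CD11b+CD48+SK minus WT-MPP (22.1% of all genes) and 9 in FL HSC minus WT-MPP (29.9%). CD11b+CD48+SK minus BM HSC had 2 (25.2%), CD11b+CD48+SK minus FL HSC 6 (21.3%) and FL HSC minus BM HSC 6 (27.7%). Only Rps4y2 departed in BM HSC minus WT-MPP. In each comparison a smaller share of members than of all genes departed. The last inside the limit was Rps12, with a largest departure of 1.15, and the first outside was Rpl28, with 0.89. Rpl28, a large subunit protein, had medians of 883, 719, 442 and 400 TPM from CD11b+CD48+SK cells through FL HSC and BM HSC to WT-MPP, and differences of 1.88 in CD11b+CD48+SK minus WT-MPP and 1.46 in CD11b+CD48+SK minus BM HSC. Of the 11, 6 departed under every alternative tried, such as adding listed copies, leaving out the 17 low-ratio cells or another averaging: Rpl7a, Rpl17, Rpl21, Rps25, Rps28 and Rps4y2.

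Rps4y2 departed most. It is a processed copy of Rps4x, annotated as a transcribed pseudogene on chromosome 6 (chr6:148354656-148355598, + strand, mm10, GENCODE M21), within an intron of Tmtc1 on the opposite strand. It resembles Rps4x, the X-linked small subunit gene, at 79.8% of aligned coding bases. The first 60 coding bases of Rps4x and the bases of Rps4y2 aligned to them (GENCODE M21) are given with the 7 differing bases in capitals.
Rps4x: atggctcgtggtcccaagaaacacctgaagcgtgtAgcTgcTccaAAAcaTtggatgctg
Rps4y2: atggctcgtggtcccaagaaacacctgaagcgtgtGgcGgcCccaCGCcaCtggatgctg
Rps4y2 was present in 48 of 56 FL HSC (85.7%, exact 95% interval 73.8 to 93.6), 22 of 36 BM HSC (61.1%, 43.5 to 76.9), 15 of 41 WT-MPP (36.6%, 22.1 to 53.1) and 13 of 47 CD11b+CD48+SK cells (27.7%, 15.6 to 42.6). Its values ran apart within populations. At 10 TPM or more lay 44 FL HSC, 16 BM HSC, 5 WT-MPP and 7 CD11b+CD48+SK cells, and in this order the highest cell held 967, 617, 377 and 993 TPM. The medians were 257, 2.69, 0.56 and 0 TPM. In no cell did it exceed Rps4x, whose medians were level, at 1706, 1401, 1529 and 1782 TPM. Its share of the summed TPM of both genes had a median of 12.6% in FL HSC and 0.222% in BM HSC, with single cells up to 46.9%. Within populations Rps4y2 and Rps4x had a Spearman rho of -0.096 to 0.032. Tmtc1 did not exceed 0.0614 TPM in any cell. In mean log2(TPM + 1), Rps4y2 was 5.13 higher in FL HSC than in WT-MPP and 2.69 higher than in BM HSC, and in CD11b+CD48+SK minus FL HSC its difference was -5.24. A fold change of a gene near 0 in many cells depends on the pseudocount.

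Rpl26, Rps27 and Rpl34 share their sequence with copies that the table lists as genes of their own. Rpl26, a large subunit protein that also binds the p53 mRNA, had a median of 90.1 TPM in FL HSC (0.0365 to 709), while those of CD11b+CD48+SK cells, WT-MPP and BM HSC were 11.3, 16.5 and 11.4 TPM. Its highest cells reached 890 and 1146 TPM in CD11b+CD48+SK cells and WT-MPP, so the populations overlapped. Gm15772, a processed pseudogene on chromosome 5 (chr5:3236431-3236868, + strand) with 99.5% identity to its coding sequence, had medians of 1429, 1893, 1258 and 1601 TPM in the same order. The first 60 coding bases of Rpl26 and the bases of Gm15772 aligned to them (GENCODE M21) are identical, so none is in capitals.
Rpl26: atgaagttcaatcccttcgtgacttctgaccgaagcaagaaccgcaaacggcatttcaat
Gm15772: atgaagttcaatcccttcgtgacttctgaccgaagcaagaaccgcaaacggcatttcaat
Rpl26 held a median of 5.55% of the pair's TPM in FL HSC and 0.58% to 1.09% in the other populations. Summed, the pair had medians of 1944 TPM for CD11b+CD48+SK cells, 1626 TPM for BM HSC, 1583 TPM for FL HSC and 1263 TPM for WT-MPP. With the copy added, the largest departure of Rpl26 fell from 3.26 to 0.39 in size (-0.39, CD11b+CD48+SK minus WT-MPP).

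Rps27, a small subunit protein with a zinc finger, was likewise highest in FL HSC, at a median of 584 TPM (269 to 1048) against 220 TPM (70.9 to 683) in CD11b+CD48+SK cells. WT-MPP had a median of 198 TPM (78.6 to 1569) and BM HSC of 282 TPM (128 to 3620). Gm9846, now named Rps27rt, is an intronless retrogene on chromosome 9 (chr9:114982366-114982739, - strand), inside an intron of Osbpl10, with a coding sequence identical to that of Rps27. Its medians were 2642 TPM for FL HSC, 3719 TPM for CD11b+CD48+SK cells, 2951 TPM for WT-MPP and 3487 TPM for BM HSC. The share of Rps27 in the pair was 12.1% to 25% in FL HSC (median 17.5%) and 3.38% to 13% in CD11b+CD48+SK cells (median 5.4%), so these ranges barely met. Summed, the pair no longer departed in any comparison, the largest departure being -0.65. Rpl34, a large subunit protein, had a median of 772 TPM (25.9 to 1600) in FL HSC and 109 TPM (34.5 to 1346) in WT-MPP, while Rpl34-ps1, a processed pseudogene of 99.4% identity (chr6:71124610-71124963, + strand), had 556 and 709 TPM. The largest departure of their sum was -0.40. How the TPM of such a pair divides between its genes rests on the authors' assignment of shared reads, which the values cannot show.

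**Figure D4:**
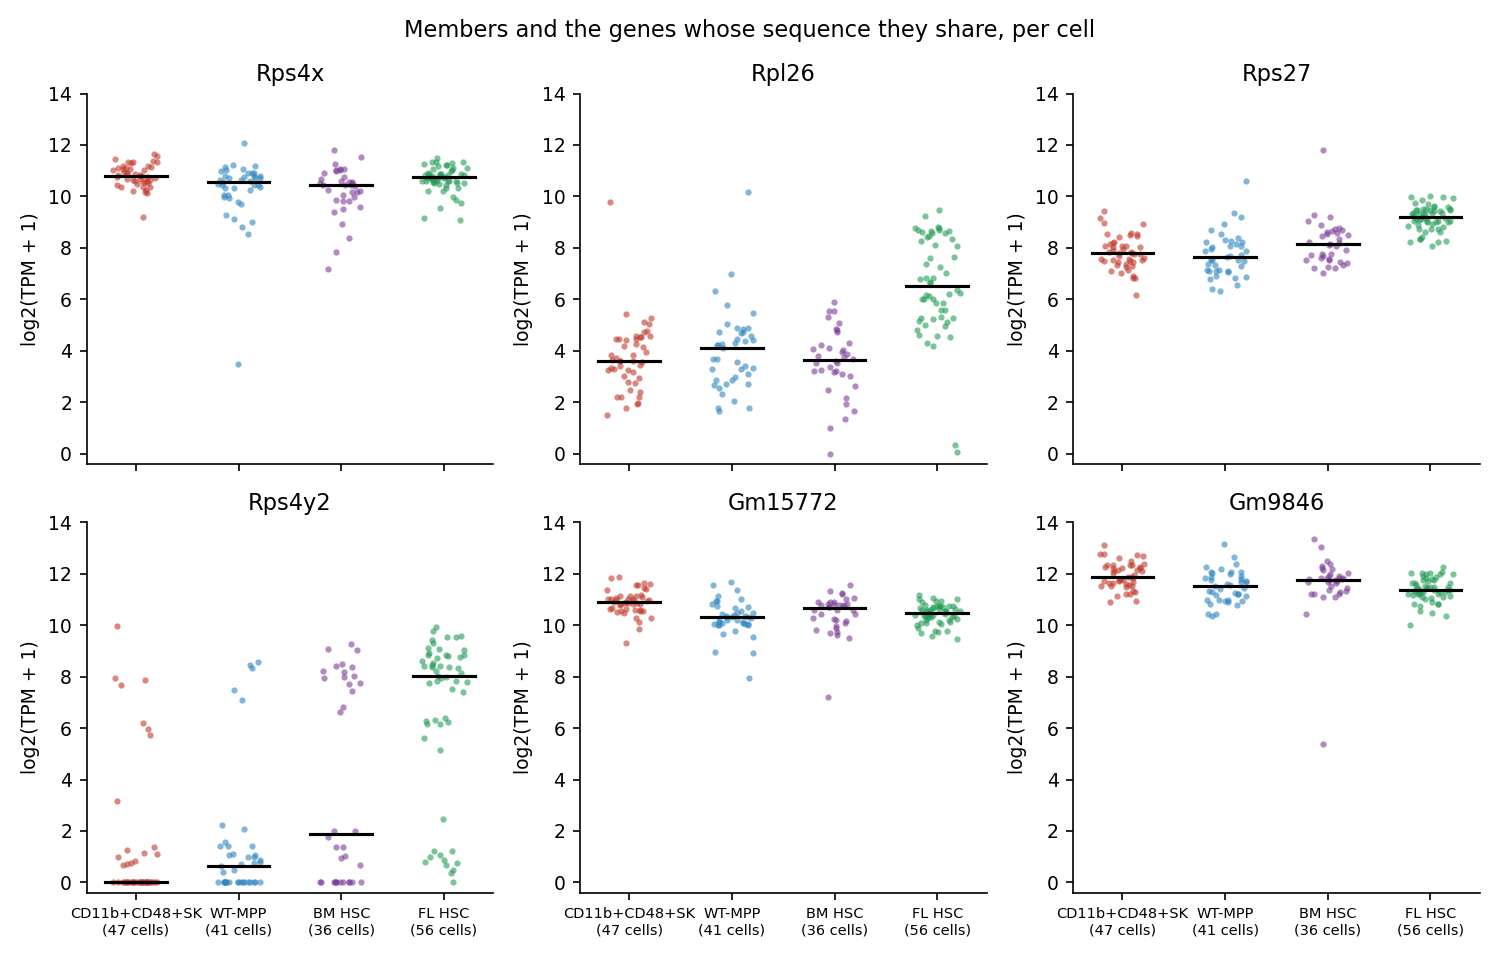
log2(TPM + 1) per cell of Rps4x, Rpl26 and Rps27 (top) and of Rps4y2, Gm15772 and Gm9846 (bottom), the genes each resembles, with 1 point per cell and a black line at the median. Rps4y2 splits into high and low cells with 44 of 56 FL HSC at 10 TPM or more, while Rpl26 and Rps27 sit below their copies in most cells and are highest in FL HSC by median.

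Near-identical copies were common: 74 of the 77 members with an annotated coding sequence had at least 1 transcript elsewhere with 95% identity or more over at least 90% of their coding sequence (median 6 copies per member, 558 in all). Rps4y2 has no annotated coding sequence and was not searched. In all, 15 copies, of 14 members, were listed in the table. Reads placed on other copies were not measured here, and the number of copies and a member's level had a Spearman rho of -0.2 over the 77.

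Rpl7a, a large subunit protein whose gene hosts small nucleolar RNAs, departed downwards in FL HSC. It had 42.1 to 429 TPM there (median 188), 499 to 1595 TPM in CD11b+CD48+SK cells (median 937), 4.52 to 1281 TPM in WT-MPP (median 431) and 1.33 to 1122 TPM in BM HSC (median 453). No CD11b+CD48+SK cell overlapped the FL HSC. The difference was 2.36 in CD11b+CD48+SK minus FL HSC, where the median member was at 0.44, and -0.98 in FL HSC minus BM HSC. Rpl17 and Rpl21 moved the same way: Rpl17 had a median of 260 TPM (65.6 to 534) in FL HSC, and 777 TPM (308 to 1442) in CD11b+CD48+SK cells, with WT-MPP at 454 TPM and BM HSC at 461 TPM. Rpl21 had 116 TPM (47.3 to 269) in FL HSC, and 285 TPM (169 to 516) in CD11b+CD48+SK cells, with WT-MPP at 210 TPM and BM HSC at 314 TPM. Both belong to the large subunit, and in both the populations overlapped. Rpl7a, Rpl17 and Rpl21 had 31, 20 and 56 near-identical copies, of which the table lists only the Rpl21 copy BC004004. With BC004004 added, Rpl21 still departed, by -1.55 in FL HSC minus BM HSC.

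Rps28 and Rps25 departed in opposite directions in the same cells. Rps28, a small subunit protein and Diamond-Blackfan anaemia gene, had its highest level in FL HSC, at 750 to 2478 TPM (median 1508), above CD11b+CD48+SK cells at 573 to 1815 TPM (median 1003), BM HSC at 0 to 1080 TPM (median 539) and WT-MPP at 140 to 1565 TPM (median 423). It was 1.82 higher in FL HSC than in BM HSC, where the median member was 0.38 higher. The BM HSC value of 0 belonged to a cell outside the 17 low-ratio cells (median ratio 1.69). That cell also held the highest Rps27 of BM HSC, at 3620 TPM. Rps25, a small subunit protein needed for translation from some viral internal entry sites, was lowest in FL HSC, with a median of 895 TPM (442 to 1641), below CD11b+CD48+SK cells at 1588 TPM (725 to 3058), WT-MPP at 1415 TPM (619 to 4325) and BM HSC at 1225 TPM (591 to 3185). Its difference in FL HSC minus WT-MPP was -0.72, where the median member had 0.60. In both genes all populations overlapped. Rps28 had 7 near-identical copies and Rps25 had 6, none of them listed.

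Rps10 and Rps12 departed only in comparisons with WT-MPP. Rps10, a small subunit protein and Diamond-Blackfan anaemia gene, ran from 645 to 2075 TPM in CD11b+CD48+SK cells (median 1173) and from 0 to 1413 TPM in WT-MPP (median 512), a difference of 2.38. In the 12 low-ratio WT-MPP cells its median was 38 TPM against 543 TPM in the other 29. Without the 17 low-ratio cells, its departure fell from 1.39 to 0.35 and it no longer departed in any comparison. Rps12, a small subunit protein, ran from 176 to 973 TPM in CD11b+CD48+SK cells (median 484) and from 0 to 535 TPM in WT-MPP (median 164), with BM HSC at 236 TPM and FL HSC at 198 TPM. Its departure was 1.15 in CD11b+CD48+SK minus WT-MPP, and 0.80 without the 17 cells. For both genes the populations overlapped.

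Within a population, most members moved together from cell to cell. The Spearman rho between a member and the sum of the others had its lowest median in CD11b+CD48+SK cells (0.39), then WT-MPP (0.4), BM HSC (0.46) and FL HSC (0.5), and was above 0 for 73 to 77 of the 78. All TPM of a cell share its library and total, so these values are descriptions. Rpl32 followed the rest most closely, with a rho of at least 0.68 in every population, then Rps29 and Rps26 with at least 0.61. Rps4y2 followed least, at -0.27 to 0.16, with Rpl26 at no more than 0.21 and Rpl29 at no more than 0.29. Rpl38 ran from -0.091 in CD11b+CD48+SK cells to 0.71 in WT-MPP.

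Of the genes outside the members, those whose levels followed the summed share most closely were mostly copies or relatives of members. Ranked by their lowest Spearman rho over the 4 populations, C330021F23Rik came first (0.37 to 0.67) and Gm15772 next (0.34 to 0.55), and Gm9846 (0.3 to 0.77) and Uqcr11 (0.28 to 0.52) were also among the closest. C330021F23Rik is now named Rps23rg1, a gene derived from Rps23, and Uqcr11 encodes a small subunit of respiratory complex III. The median rho over all 10856 genes was -0.061 to 0.013.

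The number of genes present moved with the summed share in CD11b+CD48+SK cells, with a rho of -0.49 over 47 cells, against -0.11 for WT-MPP, -0.23 for BM HSC and 0.14 for FL HSC. The pre-rRNA gene Rn45s had a rho with the share of 0.66 in CD11b+CD48+SK cells and 0.5 in FL HSC, against 0.11 for WT-MPP and 0.13 for BM HSC. Rn45s itself had medians of 4572, 5764, 2024 and 2587 TPM in those populations, and rRNA precursors are not polyadenylated as mRNAs are. Among cells with 3974 to 4751 genes present, a range that all populations share, the 24 CD11b+CD48+SK cells had the highest median share, at 16% (11.8% to 22.9%), with a median member difference of 0.95 against 17 WT-MPP, 0.69 against 14 BM HSC and 0.59 against 14 FL HSC. Single cells overlapped, since the share reached 15.9% in BM HSC, 14.6% in FL HSC and 14.4% in WT-MPP. Whether the number of genes present has a part in the differences was not tested further.

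**Figure D5:**
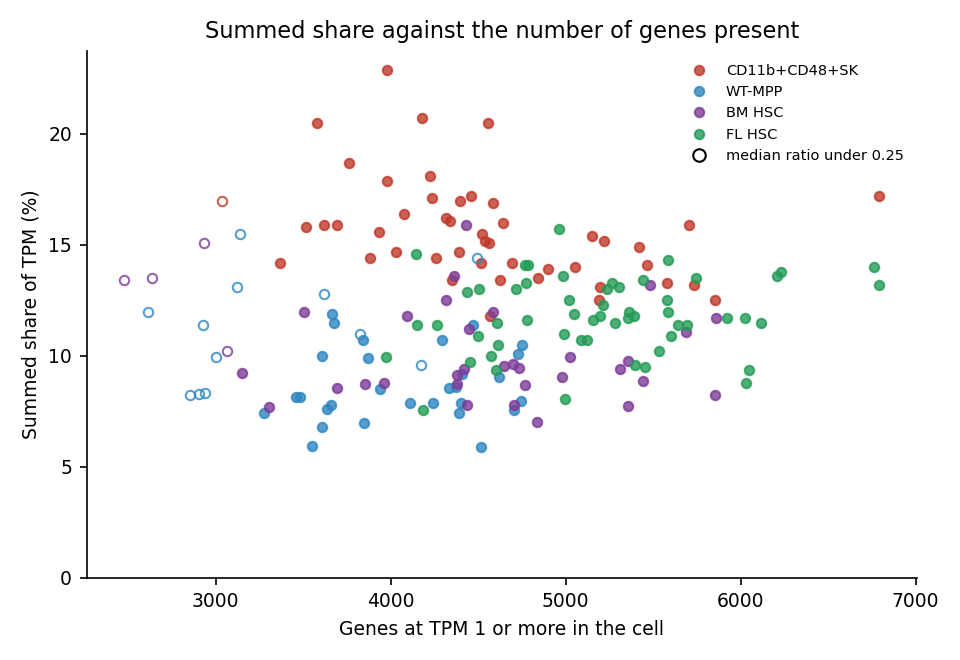
Summed share of TPM (%) of all members against the number of genes at TPM 1 or more, with 1 point per cell and open circles for the 17 cells of median ratio under 0.25. Between 3974 and 4751 genes, the range shared by all populations, CD11b+CD48+SK cells have the highest median share (16%) and overlap the others, and most open circles lie at low gene numbers.

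The related genes outside the symbols followed the members. From CD11b+CD48+SK cells through FL HSC and BM HSC to WT-MPP, the medians of Fau were 1068, 979, 558 and 630 TPM. Rps27l, a p53-responsive relative of Rps27, had 1293 TPM against 592 to 829 TPM in the others, and Rpl36al 953 TPM against 596 to 673 TPM. Rpl22l1, a paralogue of Rpl22, had a difference of 2.15 in CD11b+CD48+SK minus WT-MPP, where Rpl22 had 1.47. Rpl7l1, which acts in ribosome assembly, had 1.06 there but -0.75 in CD11b+CD48+SK minus BM HSC. The muscle paralogue Rpl3l was present in 1 BM HSC and 2 FL HSC, and the testis paralogue Rpl10l in 0 cells. Depth being unknown, this does not show that they are absent.

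Listed genes with TOP mRNAs outside the members, mostly translation factors, gave a similar order at a lower level. Hnrnpa1, Nap1l1, Npm1 and Gnb2l1 are among those on the list that are not translation factors. The 19 listed genes held a median of 1.48% of TPM in CD11b+CD48+SK cells, with FL HSC at 1.33%, BM HSC at 1.13% and WT-MPP at 1.06%. In CD11b+CD48+SK minus WT-MPP their median was 0.94 and all 19 were above 0, with 9 (47.4%) higher by the fold, where 19% of all genes were, among them Eef1g (1.95), a subunit of elongation factor 1, and Pabpc1 (1.66), the poly(A)-binding protein. Eef1a1, the most abundant of them and the factor that brings tRNAs to the ribosome, differed by 0.42. Their summed TPM followed the members' share from cell to cell with a rho of 0.36 in CD11b+CD48+SK cells and 0.5 to 0.64 in the others. Of the 11 listed genes of mTORC1 and cap-dependent translation, 2 (18.2%) were higher by the fold in that pair, close to the 19% of all genes, and 0 were lower. They were Larp1 (1.12), which represses TOP mRNAs, and Akt1s1 (1.51), an inhibitor within mTORC1. In CD11b+CD48+SK minus FL HSC, Larp1 was higher (1.19, 9.09% of the list beside 4.02% of all genes), and Akt1s1 (-1.42), Eif4ebp1 (-1.65) and Eif4ebp2 (-1.11), the last 2 being repressors of cap-dependent translation, were lower, 27.3% of the list beside 20.9% of all genes. Of 7 listed chaperones of ribosomal proteins, Bccip, Grwd1 and Pdcd2l were higher by the fold in CD11b+CD48+SK minus WT-MPP (42.9% beside 19% of all genes) and 0 were lower. Against FL HSC 0 were higher and Pdcd2l (-1.41) was lower (14.3% beside 20.9%).

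The mitochondrial ribosomal proteins, which serve the organelle's own ribosome, had the same order of shares but other differences. Their 76 genes held a median of 1.32% of TPM in CD11b+CD48+SK cells and 1.29% in FL HSC, against 0.994% in BM HSC and 0.981% in WT-MPP. In CD11b+CD48+SK minus WT-MPP their median difference was 1.48, above the 0.99 of the cytosolic members. There 58 (76.3%) were higher by the fold and 0 lower, where 19% and 5.01% of all genes were. In CD11b+CD48+SK minus BM HSC it was 1.02 beside 0.79. There 38 (50%) were higher and 0 lower, where 13.4% and 11.8% of all genes were. CD11b+CD48+SK minus FL HSC had a median of -0.49 over these genes, below the -0.32 of all genes, where the cytosolic members had 0.44. By the fold 0 were higher and 16 (21.1%) lower, close to the 20.9% of all genes that were lower. In FL HSC minus BM HSC, 60 of the 76 (78.9%) were higher by the fold, against 25.6% of all genes and 5 of the 78 cytosolic members. The summed shares of these 2 populations were closer, at 1.29% and 0.994%. FL HSC also had more genes present (median 5206 against 4442), and whether that has a part in the fold count was not tested. From cell to cell, the mitochondrial sum had a rho with the cytosolic share of -0.15 in CD11b+CD48+SK cells and 0.18 to 0.52 in the others.

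S and G2/M phase genes differed between populations more than the members did. Of 20 listed genes, 18 (90%) were higher by the fold in CD11b+CD48+SK minus WT-MPP (median 2.55), where 19% of all genes were. In CD11b+CD48+SK minus FL HSC 0 were higher and 5 (25%) lower (median -0.53), where 20.9% of all genes were lower. Among cells, their mean level had a rho with the share of -0.4 in CD11b+CD48+SK cells and, closer to 0, of -0.091 to -0.056 in the other populations. Both measures come from the same library and total, and the part of these genes in the share was not tested. Myc and Mycn, transcription factors known to drive ribosome production, differed in opposite ways. From CD11b+CD48+SK cells through WT-MPP and BM HSC to FL HSC, the medians of Myc were 600, 343, 264 and 34.6 TPM and those of Mycn 0.238, 13.6, 252 and 326 TPM. Neither followed the share among cells of a population, with rho between -0.11 and 0.25, and Hoxb5 had a rho of -0.29 to -0.05. By median, Myc was highest in CD11b+CD48+SK cells and Mycn in FL HSC, and the part of either gene in the summed share was not tested.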

How the data were processed

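Single cells of 4 populations were sequenced, and cDNA was made with the Discover-sc WTA Kit V2. Per the submitters' processing notes, reads were handled with bcl2fastq, HISAT2 (2.1.0), SAMtools (0.1.19) and StringTie (1.3.4) on mm10. The values deposited by the authors are TPM per gene and cell, in a table of 14825 genes. The counting of strand and of reads shared between copies is not given in the sources used here. No filter was set on cells, and doublets were not sought because each library was 1 sorted cell. The table holds 1 further column of cell values that matches no sample, and it was left out.

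Levels were compared as the mean over a population's cells of log2(TPM + 1). Cells are not replicates and no animal is named, so no test was run. Intervals of shares of cells are exact Clopper-Pearson intervals at 95% and cover counting error only, and depth is unknown since TPM keeps no counts. Near-identical copies were found with blastn 2.17.0+ against GENCODE M21 transcripts, and RefSeq gave places for 78 members, 77 by current symbol. The steps were tested on simulated data. Computation used Python 3.11.15, numpy 2.4.6, pandas 2.3.3, scipy 1.17.1 and matplotlib 3.10.9.

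Genes named are the 5 highest and 5 lowest members, every departing member, the 3 largest differences of each sign per comparison (given where they bear on a result), the 3 closest to and farthest from the rest among cells, listed genes, and the non-members most alike. Values of some single genes are not reported here. Members, lists and this rule were chosen with earlier results of these data known. Rps6, Rpl5, Rpl11 and Rps26 stand for their roles. Alternatives for the pseudocount, averaging, filter, scaling, gene number, denominator and copies were run.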

Additional observations from a re-analysis of the deposited data

How the results depend on the processing

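No paired analysis was possible because a replicate number only names a cell, and no label ties cells of different populations that carry the same number. No result comes from a test. Of 109 values under an alternative, 95 moved by less than the spread over cells, or for the count of departing members by less than 1.5 times. Scaling cells by their median ratio reversed the members' median in CD11b+CD48+SK minus WT-MPP (-0.07), FL HSC minus BM HSC (-0.48), FL HSC minus WT-MPP (-0.71) and BM HSC minus WT-MPP (-0.28), and moved it to 0.19 against BM HSC and 0.70 against FL HSC. The same scaling without the 17 low-ratio cells, a choice made after seeing the data, reversed none and moved only FL HSC minus BM HSC, to 0.06. Taken relative to the 633 widely present non-members, also added later, the median was 0.44 in CD11b+CD48+SK minus WT-MPP and 0.38 in CD11b+CD48+SK minus BM HSC, and was reversed in FL HSC minus BM HSC (-0.19) and FL HSC minus WT-MPP (-0.08). The summed share in CD11b+CD48+SK cells was 18% with the 50 highest non-members out of the total and 12.5% without the 5 highest members, which left 9.48% in FL HSC. The number of departing members was 8 to 12 in every setting, and 8 with listed copies added, when Rpl26, Rpl34 and Rps27 were lost.

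Depth is unknown, so a member listed at 0 in a cell is not shown to be absent from it. Each population is 1 sample of unnamed animals, and population, genotype, transplantation, age and tissue cannot be told apart.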
